A study of Homo sapiens with 4 samples.

Results

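The apolipoprotein L (APOL) family was examined in ATAC-seq data, which record where the transposase Tn5 can insert into open chromatin. The cells were HK1, an established human nasopharyngeal carcinoma line, either wild type (WT) or FLI1-KO (libraries labelled sgFLI1), and either untreated or given IFN-γ, which the study's methods place at 24 h. This gave 4 groups (untreated WT and sgFLI1, and treated WT-IFN-γ and sgFLI1-IFN-γ) with 1 peak list each, so no replicate error could be estimated and no difference between groups was tested. The study asked how FLI1, a transcription factor of the ETS family, affects chromatin accessibility under IFN-γ. Whether the FLI1-KO cells were 1 clone or a pool is not given in the sources used here.

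The members were the genes APOL1 to APOL6 of chromosome 22. A peak was counted for a member when it overlapped the gene body in the GENCODE annotation of GRCh38 or the 10 kb upstream of it. By this rule the family held 3 of the 59629 WT peaks, 6 of the 63203 sgFLI1 peaks, 8 of the 67470 WT-IFN-γ peaks and 7 of the 59923 sgFLI1-IFN-γ peaks. Merged over the lists, they formed 9 regions of 93211.

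APOL proteins are membrane-active helical proteins. APOL1 circulates on high-density lipoprotein and kills trypanosomes by forming ion channels, whereas the other members lack the signal for secretion and stay inside the cell. APOL3 attacks the membranes of bacteria that reach the cytosol, APOL6 can promote cell death when it is overproduced, and the roles of APOL2, APOL4 and APOL5 are less well defined. Several members are interferon-stimulated genes. IFN-γ acts on its targets through the GAS element, a short palindromic sequence, and through IRF1, an induced transcription factor that binds GAAA repeats known as IRF or ISRE elements.

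The sequences under the APOL peaks carried such repeats. The motif GAAANNGAAA, searched on both strands and called the IRF site hereafter, was present in 7 of the 9 regions, with 9 sites in all. Of the 17 other regions of the locus, 3 held it, and no share over all regions of the genome was computed. The stretches below are shown because they lie in those 7 regions, and capitals mark the IRF site. Each has 30 bases of GRCh38, read 5′ to 3′ on the strand named.
APOL6 promoter, chr22:35648348-35648377, plus strand: tggcaaaaagGAAACTGAAAgtgacagctg
APOL3 promoter, chr22:36160795-36160824, plus strand: acccaaaaggGAAAGTGAAAgtcacaactt
APOL2 promoter, chr22:36239564-36239593, plus strand: ggaattcGAAAGGGAAAGTGAAAgtcacaa
APOL1 promoter, chr22:36253067-36253096, minus strand: ggaattcGAAAGGGAAAGTGAAAgtcacaa
APOL3 internal promoter, chr22:36156942-36156971, minus strand: tccctcaactGAAAGTGAAActgaagctgg
APOL2 intron, chr22:36238268-36238297, minus strand: tttctcaactGAAAGTGAAActgaagctgg
APOL4 upstream, chr22:36208346-36208375, minus strand: ggatggtccaGAAAATGAAAcaaaacaaga

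Some of the stretches were near copies of each other. Those of the APOL1 and APOL2 promoters, each holding 2 overlapping IRF sites, were identical at 30 of 30 positions. The stretches of the APOL3 internal promoter and the APOL2 intron were identical at 28 of 30 positions, and those of the APOL6 and APOL3 promoters at 22 of 30. The likeness ran beyond the printed letters. The longest exact run shared by the APOL1 and APOL2 promoter regions was 58 bases, on opposite strands. That of the APOL3 and APOL1 promoter regions was 45 bases, and that of the APOL3 internal promoter and APOL2 intron regions was 34 bases. The authors kept alignments with a mapping quality of at least 30, which can remove reads that match several copies equally well. What such a filter did to the counts in these regions was not tested.

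The cluster covers 629 kb, from 35638446 (10 kb upstream of APOL6) to 36267530 (the end of APOL1) on chromosome 22. APOL6 (ENSG00000221963.6, 35648446-35668404, plus strand) and APOL5 (ENSG00000128313.2, 35717872-35729483, plus strand) lie on one side of RBFOX2, a gene for an RNA splicing factor. APOL3 (ENSG00000128284.20, 36140329-36166177, minus strand), APOL4 (ENSG00000100336.18, 36189124-36204840, minus strand), APOL2 (ENSG00000128335.14, 36226209-36239954, minus strand) and APOL1 (ENSG00000100342.22, 36253071-36267530, plus strand) lie on the other. APOL1 and APOL2 stand head to head.

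Depth was similar but not equal. The background of the libraries corresponded to 8.04 (WT) and 8.84 (WT-IFN-γ) tags per kb of genome in WT cells and to 6.93 (sgFLI1) and 6.86 (sgFLI1-IFN-γ) in FLI1-KO cells, and the median peak held 26 to 31 tags over its summit. Promoter peaks of epithelial marker genes were present for 4 or 5 of 6 genes in each list. TP63 had none in any list, KRT5 lacked one in WT-IFN-γ and CDH1 lacked one in sgFLI1-IFN-γ. Of 8 markers of leukocytes, endothelium and fibroblasts, 2 (CD14 and COL1A2) had one in each list. FLI1 itself had 4 peaks in WT and sgFLI1-IFN-γ and 5 in WT-IFN-γ and sgFLI1, which does not check the knockout, since a guide edit need not close the locus.

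Across the family, WT-IFN-γ held peaks in 8 of the 9 regions, whereas WT held them in 3 and the FLI1-KO lists in 6 each. Over all chromosomes the lists held 67470 (WT-IFN-γ), 59629 (WT), 63203 (sgFLI1) and 59923 (sgFLI1-IFN-γ) peaks, against 93211 merged regions. The promoters of APOL6, APOL2 and APOL1, 3 of the 9 regions, were listed in all 4 libraries, as were 40876 of the 93211 merged regions. By gene, APOL1 had 1 peak in every list. APOL2 had 1 peak in both untreated lists and 2 in both treated ones. The second was not the same peak: in WT-IFN-γ it was the separate intron region, and in sgFLI1-IFN-γ it lay within the promoter region. APOL3 had 0 peaks in WT and APOL6 had 1, and each had 2 in the other lists. APOL4 had 1 peak, in WT-IFN-γ, and 0 in the other lists. APOL5 had no peak in any list, body and upstream sequence included.

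The height of each peak was read as the number of tags over its summit, recovered as a whole number from the authors' fold enrichment and p-value. Where a list had no peak, the smallest pileup that would have been listed was computed from the strongest library's local background. To compare libraries, tags were divided by tag density, and ratios are given with 95% intervals that cover counting error only. After this division, 8 of the 9 regions were highest in WT-IFN-γ, against 25.9% of all merged regions, and the remaining one, the APOL3 intron, was highest in sgFLI1. A region listed in 1 library only counts as highest there by construction. This holds for the APOL4 upstream and APOL2 intron regions in WT-IFN-γ and for the APOL3 intron in sgFLI1. The share over all merged regions includes such regions too. The median APOL peak stood by −log10 q at percentile 62.9 of the WT-IFN-γ list, but at 31.2 of WT, 34.0 of sgFLI1 and 21.3 of sgFLI1-IFN-γ.

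**Figure D1:**
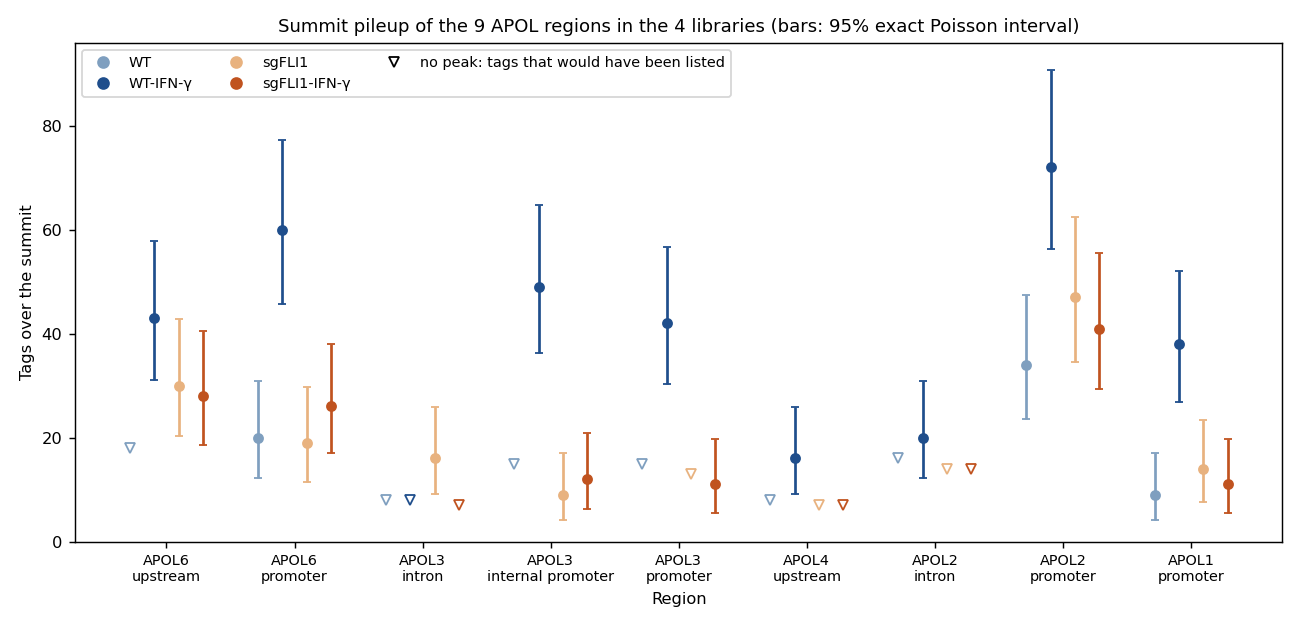
Tags over the summit (y axis) in each of the 9 APOL regions (x axis) in the 4 libraries, with 95% exact Poisson intervals as bars. Open triangles stand where a library had no peak and give the pileup that would have been listed. WT-IFN-γ reaches 72 tags at the APOL2 promoter and has the tallest listed peak in every region but the APOL3 intron.

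The APOL6 promoter was open in all libraries and highest in WT-IFN-γ. Its region, 35648103-35649145, held 20 tags in WT (95% interval 12.2 to 30.9) and 19 in sgFLI1 (11.4 to 29.7) without IFN-γ, whereas WT-IFN-γ held 60 (45.8 to 77.2) and sgFLI1-IFN-γ 26 (17.0 to 38.1). These intervals are of raw tags, without regard to depth. Per tag density the pileups were 2.49 in WT, 2.74 in sgFLI1, 6.79 in WT-IFN-γ and 3.79 in sgFLI1-IFN-γ. The summit in WT-IFN-γ lay at -40 bp from the transcription start site (TSS), whereas the WT summit lay at 285 bp, in an intron, and those of sgFLI1 and sgFLI1-IFN-γ at 117 and 33 bp, in the untranslated part of an exon. The IRF site shown above and a GAS site (TTCNNNGAA) stood at -44 and -13 bp from the WT-IFN-γ summit. The GAS site is printed with its capitals.
APOL6 promoter, chr22:35648379-35648408, plus strand: agcccatgatTTCCTGGAAgagccctagag

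A second APOL6 region, 35646454-35647200, lay between genes about 1.6 kb upstream of the promoter, with its WT-IFN-γ summit at -1597 bp. It had no peak in WT, where 18 tags would have been listed and the WT-IFN-γ pileup corresponds to 39.1 tags. It held 30 tags in sgFLI1 (20.2 to 42.8), 43 in WT-IFN-γ (31.1 to 57.9) and 28 in sgFLI1-IFN-γ (18.6 to 40.5). Per tag density these are 4.33, 4.87 and 4.08, so the region was as high in untreated as in treated FLI1-KO cells within counting error, and absent from the untreated WT list alone. It held neither an IRF nor a GAS site, nor the sites TGANTCA (AP-1) or CCGGAAGT (ETS). Its 201 bases centred on the WT-IFN-γ summit are shown because it is the only region open in both FLI1-KO libraries at nearly the WT-IFN-γ level without an IRF site.
APOL6 upstream, chr22:35646749-35646949, plus strand: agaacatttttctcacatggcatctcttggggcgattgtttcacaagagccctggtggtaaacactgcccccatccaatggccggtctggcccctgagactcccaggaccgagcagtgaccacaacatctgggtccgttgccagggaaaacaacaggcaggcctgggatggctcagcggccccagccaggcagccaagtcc

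APOL3 had 3 regions, none of them listed in WT. Its promoter region, 36160390-36160922, held 42 tags in WT-IFN-γ (30.3 to 56.8), with the summit 1 bp from a TSS, and 11 in sgFLI1-IFN-γ (5.49 to 19.7). WT and sgFLI1 had no peak there, and 15 and 13 tags would have been listed. The promoter peak was therefore listed only with IFN-γ, in both genotypes. Scaled to the WT depth, the WT-IFN-γ pileup corresponds to 38.2 tags, above the limit of 15. The 11 tags of sgFLI1-IFN-γ lay below the limit of 13 in sgFLI1. That limit rests on the WT-IFN-γ local background (5.82 tags before scaling), whereas sgFLI1-IFN-γ listed its 11 tags over a local background of 1.77. Whether a peak of the same height could have been missed in untreated FLI1-KO cells depends on the background there and was not tested.

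The internal promoter region of APOL3, 36156890-36157366, covers the start of shorter transcripts. It held no WT peak (15 tags would have been listed), 9 tags in sgFLI1 (4.12 to 17.1), 49 in WT-IFN-γ (36.3 to 64.8) and 12 in sgFLI1-IFN-γ. The WT-IFN-γ peak stood alone above the rest, and both FLI1-KO peaks were weak, at percentiles 7.52 and 21.3 of their lists. The summits did not coincide. In WT-IFN-γ and sgFLI1 the summit lay over an AP-1 site (6 and -1 bp away), and the IRF site stood at -220 and -227 bp. In sgFLI1-IFN-γ the summit lay 17 bp from the IRF site, at -1 bp from a TSS. The third region, 36145105-36145483 in an APOL3 intron 11607 bp from the nearest TSS, had 16 tags in sgFLI1 (9.15 to 26.0) and no peak elsewhere, where 7 or 8 tags would have been listed. It held no IRF, GAS, AP-1 or ETS site.

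APOL4 and the APOL2 intron gave the weakest peaks of WT-IFN-γ in the family. The APOL4 region, 36208222-36208505, lay between genes at -3534 bp from the nearest APOL4 TSS and -6565 bp from the canonical one. It held 16 tags in WT-IFN-γ (9.15 to 26.0), and no other list had a peak, although 7 or 8 tags would have been listed. The promoter of APOL4 itself had no peak in any list. The APOL2 intron region, 36238251-36238511, held 20 tags in WT-IFN-γ (12.2 to 30.9) and no peak elsewhere. There the limit was 16 tags in WT and 14 in both FLI1-KO libraries, close to the 18.2, 15.7 and 15.5 tags that the WT-IFN-γ pileup gives at their depths, so a peak of the same height could have been missed.

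Both weak regions held IRF, GAS and AP-1 sites within short distances. The 201 bases centred on each WT-IFN-γ summit are shown for that reason, read on the minus strand. Capitals mark an AP-1 and an IRF site in the APOL4 stretch, and a GAS, an AP-1 and an IRF site in the APOL2 stretch. The GAS site of the APOL4 region lies at -113 bp, outside the stretch.
APOL4 upstream, chr22:36208274-36208474, minus strand: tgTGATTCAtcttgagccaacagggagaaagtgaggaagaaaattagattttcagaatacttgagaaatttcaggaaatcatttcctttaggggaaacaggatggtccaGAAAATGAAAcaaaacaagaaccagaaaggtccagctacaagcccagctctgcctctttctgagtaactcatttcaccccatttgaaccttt
APOL2 intron, chr22:36238253-36238453, minus strand: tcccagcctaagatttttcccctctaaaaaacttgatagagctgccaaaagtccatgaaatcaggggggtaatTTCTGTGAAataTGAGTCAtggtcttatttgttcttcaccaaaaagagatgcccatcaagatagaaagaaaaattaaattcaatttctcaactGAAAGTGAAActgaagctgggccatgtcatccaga

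The APOL2 promoter was the tallest APOL region in each of the 4 libraries. Its region, 36238819-36240063, held 34 tags in WT (23.5 to 47.5) and 47 in sgFLI1 (34.5 to 62.5) without IFN-γ, whereas WT-IFN-γ held 72 (56.3 to 90.7) and sgFLI1-IFN-γ 41 (29.4 to 55.6). These intervals are of raw tags. Per tag density WT-IFN-γ was highest at 8.15, against 4.23 in WT, 6.78 in sgFLI1 and 5.98 in sgFLI1-IFN-γ. In WT and WT-IFN-γ the summit was the same base, 36239555, and the IRF sites lay 20 and 26 bp from it. In sgFLI1 and sgFLI1-IFN-γ the first of them stood at -133 and -37 bp from the summit, and sgFLI1-IFN-γ had a second, small peak of 13 tags (6.92 to 22.2) in an intron.

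The APOL1 promoter was lowest in WT and highest in WT-IFN-γ. Its region, 36252602-36253549, held 9 tags in WT (4.12 to 17.1) and 14 in sgFLI1 (7.65 to 23.5) without IFN-γ, whereas WT-IFN-γ held 38 (26.9 to 52.2) and sgFLI1-IFN-γ 11 (5.49 to 19.7). These intervals are of raw tags, without regard to depth. Per tag density the pileups were 1.12 in WT, 2.02 in sgFLI1, 4.30 in WT-IFN-γ and 1.60 in sgFLI1-IFN-γ. The WT peak ranked at percentile 2.23 of its list, among the weakest, and the WT-IFN-γ peak at percentile 64.1. The sgFLI1 peak ranked at percentile 30.3 and the sgFLI1-IFN-γ peak at percentile 17.9. All 4 summits lay close to the start of the gene, at -84 bp (sgFLI1), -56 bp (WT), -55 bp (sgFLI1-IFN-γ) and -28 bp (WT-IFN-γ) from the canonical TSS. The overlapping IRF sites stood at 1 and 7 bp from the WT summit, at -27 and -21 bp from that of WT-IFN-γ, and at 0 and 6 bp from that of sgFLI1-IFN-γ.

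**Figure D2:**
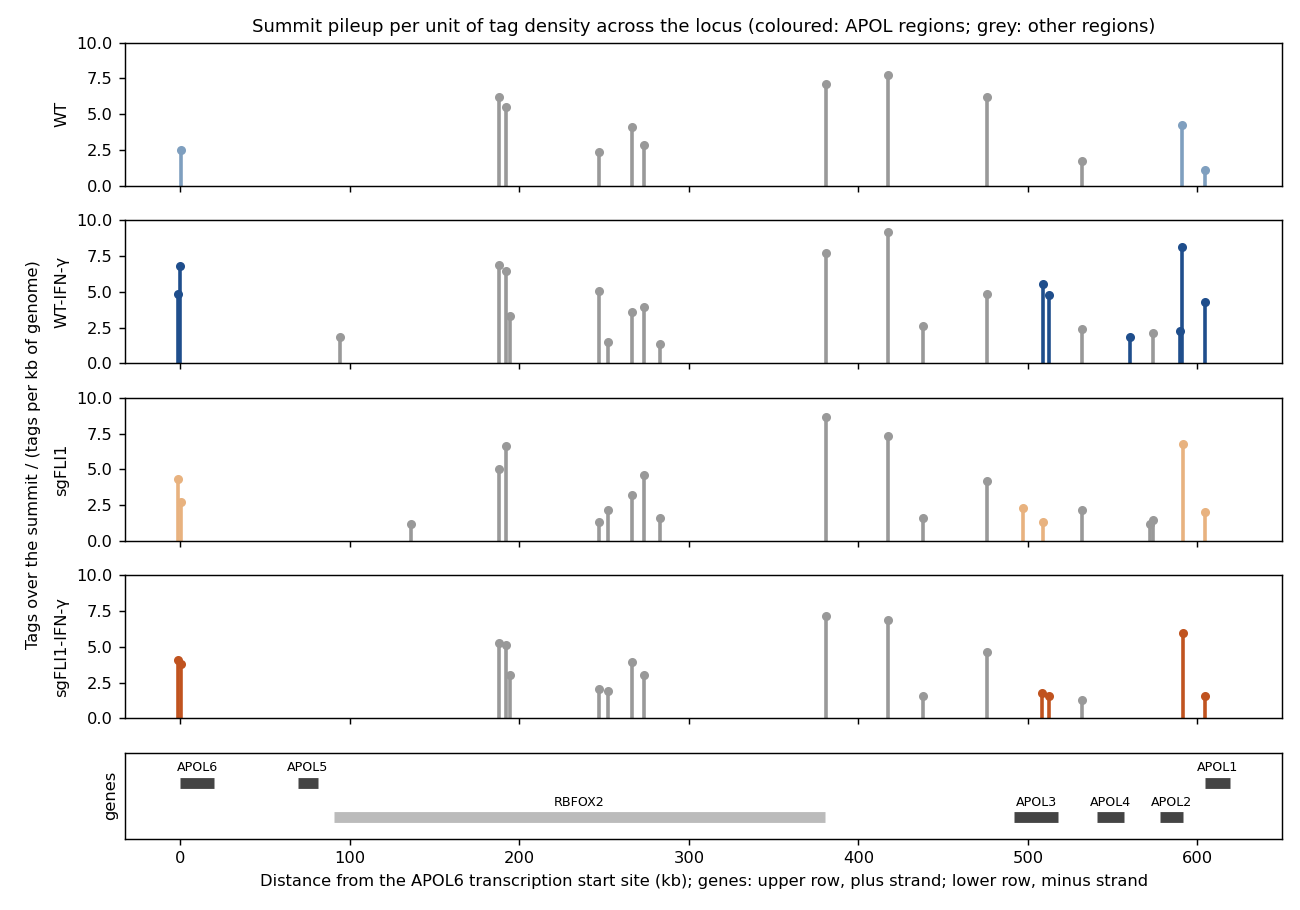
Tags over the summit divided by tags per kb of genome (y axis) for every region of the locus, in 1 panel per library, against distance from the APOL6 TSS in kb (x axis), with genes drawn to scale at the bottom. Coloured stems are APOL regions and grey stems the 17 other regions. In WT 3 coloured stems are present and in WT-IFN-γ 8, while the tall grey stems stand in all panels.

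IFN-γ in WT cells went with more and taller APOL peaks. Of the 8 WT-IFN-γ peaks, 5 overlapped no WT peak (62.5%, Wilson interval 30.6 to 86.3), against 25.2% of all WT-IFN-γ peaks. These were the APOL6 upstream, APOL3 internal promoter, APOL3 promoter, APOL4 upstream and APOL2 intron regions. In the other direction 0 of 3 WT peaks lacked a WT-IFN-γ peak, against 15.9% of all WT peaks. The 3 shared regions were all higher with IFN-γ. The ratio was 3.84 at the APOL1 promoter (1.83 to 9.04), 2.73 at the APOL6 promoter (1.62 to 4.78) and 1.93 at the APOL2 promoter (1.26 to 2.99). Of these, 2 of 3 reached 2-fold, against 1.80% of the 49895 regions shared by the lists, and the median ratio of all shared regions was 0.953. A ratio as high as that of APOL1 was seen in 0.126% of shared regions, that of APOL6 in 0.551% and that of APOL2 in 2.09%.

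In FLI1-KO cells, the 5 APOL regions listed with and without IFN-γ had ratios from 0.794 to 1.38, each with an interval that included 1. Of the 7 sgFLI1-IFN-γ peaks, 1 overlapped no sgFLI1 peak, against 18.0% of all peaks of that list, and it was the APOL3 promoter. Of the 6 sgFLI1 peaks, 1 (the APOL3 intron) lacked a sgFLI1-IFN-γ peak, against 22.2% of all sgFLI1 peaks, and its 16 tags stood above the 7 that would have been listed. Among the 5 shared regions, 0 reached a 2-fold higher pileup, against 0.212% of all 48600 shared regions, a size that few regions reached in this comparison. The ratios were 0.943 at the APOL6 upstream region (0.543 to 1.63), 1.38 at the APOL6 promoter (0.736 to 2.64) and 1.35 at the APOL3 internal promoter (0.521 to 3.62). They were 0.882 at the APOL2 promoter (0.565 to 1.37) and 0.794 at the APOL1 promoter (0.326 to 1.88). The median of all shared regions was 0.909, and 4.37% of them had a ratio as high as that of the APOL6 promoter and 5.49% one as high as that of the APOL3 internal promoter. The intervals of the APOL3 internal promoter and the APOL1 promoter, which rest on 9 to 14 tags, left room for pileups up to 3.62-fold and 1.88-fold higher with IFN-γ.

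The difference between these responses was computed at the 3 regions listed in all libraries, as the ratio in WT divided by the ratio in FLI1-KO. It was 4.84 at the APOL1 promoter (1.66 to 14.2), 2.19 at the APOL2 promoter (1.22 to 3.92) and 1.97 at the APOL6 promoter (0.907 to 4.30). Over the 40876 regions listed in all libraries the median was 1.06, and values as high were found in 0.0391%, 2.28% and 3.63% of them. Of the 9 other regions of the locus listed in all libraries, 1 between APOL3 and APOL4 had 2.25 (0.774 to 6.55) and 1 in an RBFOX2 intron had 2.09 (0.975 to 4.47), as high as the APOL2 and APOL6 promoters. Each interval covers counting error only and is no test between genotypes.

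**Figure D3:**
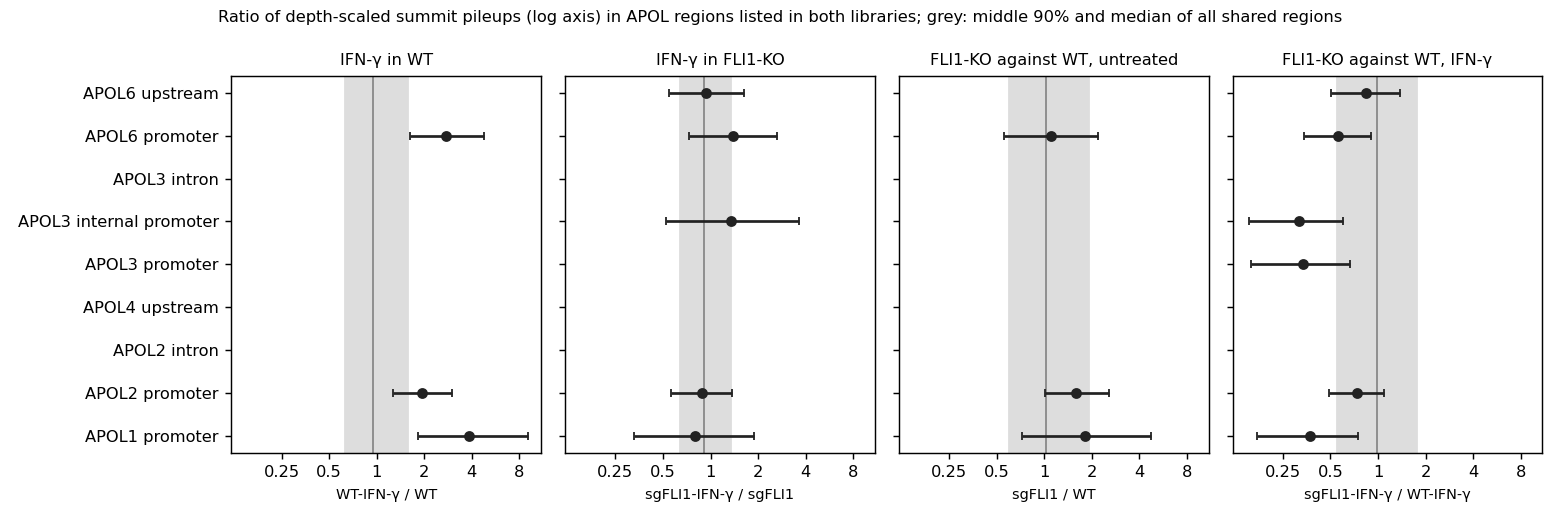
Ratios of summit pileup per tag density (x axis, logarithmic) for the APOL regions listed in both libraries of each comparison, with 95% counting intervals. Grey bands hold the middle 90% of all shared regions and grey lines their median. The 3 ratios for IFN-γ in WT lie above the band, those in FLI1-KO run from 0.794 to 1.38, with the APOL6 promoter just above the band and the APOL3 internal promoter at its edge, and 3 of the 6 ratios between genotypes under IFN-γ lie below the band.

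Without IFN-γ, the FLI1-KO list held 6 APOL peaks and the WT list 3. Of the 6 sgFLI1 peaks, 3 overlapped no WT peak (Wilson interval 18.8 to 81.2%), against 25.3% of all sgFLI1 peaks, a share inside that interval. They were the APOL6 upstream, APOL3 internal promoter and APOL3 intron regions. In turn, 0 of 3 WT peaks lacked a sgFLI1 peak, against 21.4% of all WT peaks. At the shared promoters the ratio of sgFLI1 to WT was 1.10 for APOL6 (0.557 to 2.18), 1.60 for APOL2 (1.01 to 2.57) and 1.80 for APOL1 (0.728 to 4.73). Ratios as high were found in 41.0%, 9.98% and 6.30% of all shared regions, in the same order. None of the 3 reached 2-fold in either direction, against 4.11% of the 46650 shared regions that were higher and 1.89% that were lower in FLI1-KO.

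Under IFN-γ the peak counts were close, with 8 in WT and 7 in FLI1-KO, whereas the pileups differed. Of the 8 WT-IFN-γ peaks, 2 (APOL4 upstream and APOL2 intron) had no sgFLI1-IFN-γ peak, against 29.0% of all WT-IFN-γ peaks. None of the 7 sgFLI1-IFN-γ peaks lacked a WT-IFN-γ peak, against 19.8% of that list. All 6 shared regions were lower in FLI1-KO. The ratio of sgFLI1-IFN-γ to WT-IFN-γ was 0.315 at the APOL3 internal promoter (0.153 to 0.602), 0.337 at the APOL3 promoter (0.157 to 0.667) and 0.373 at the APOL1 promoter (0.172 to 0.744). It was 0.558 at the APOL6 promoter (0.338 to 0.898), 0.734 at the APOL2 promoter (0.487 to 1.09) and 0.839 at the APOL6 upstream region (0.502 to 1.38). Thus 3 of 6 were at least 2-fold lower, against 3.31% of the 47449 shared regions, and 0 of 6 at least 2-fold higher, against 2.96%. The comparison of IFN-γ in WT and that of the treated genotypes both use the WT-IFN-γ list, so its pileups at these regions enter both ratios.

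The regions around the cluster had ratios close to those of the genome. Shared regions within 5 Mb of the locus, without the APOL windows, had a median log2 ratio of -0.11 for IFN-γ in WT, -0.14 for IFN-γ in FLI1-KO, 0.06 between untreated genotypes and 0.02 between treated genotypes. The medians over all chromosomes were -0.07, -0.14, 0.05 and -0.02. The APOL regions gave 1.45, -0.08, 0.68 and -1.13 in the same order. The medians near the locus thus lay within 0.1 of those of the genome in each comparison, between genotypes as well as between treatments.

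Taken as 1 locus, the 629 kb held 26 merged regions, with 13 peaks in WT and 21 in sgFLI1 without IFN-γ, whereas WT-IFN-γ had 23 and sgFLI1-IFN-γ had 19. Of the 15 WT-IFN-γ peaks outside the APOL windows, 6 had no WT peak, against 25.2% of all peaks of that list. The 17 regions there were highest in WT-IFN-γ in 8 cases (25.9% of all merged regions), in sgFLI1 in 7 (32.5%), in WT in 2 (24.8%) and in sgFLI1-IFN-γ in 0 (16.8%). A region in an intron of RBFOX2 at 35894816-35895698 held 19 tags in WT and 9 in sgFLI1, against 45 in WT-IFN-γ and 14 in sgFLI1-IFN-γ, with ratios of 2.16 for IFN-γ in WT (1.24 to 3.90) and 0.401 between treated genotypes (0.203 to 0.744). Its ratio for IFN-γ in WT divided by that in FLI1-KO was 1.37 (0.507 to 3.71). It held a GAS site at -6 bp from the WT-IFN-γ summit and no IRF site. Of the other neighbours, RASD2 and MB, on the APOL6 side, had 1 and 2 peaks in WT-IFN-γ that overlapped no WT peak. MYH9 and TXN2, on the APOL1 side, had 0.

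The IRF site lay near most APOL summits of WT-IFN-γ. Within 100 bp of the summit it was found in 6 of 8 WT-IFN-γ peaks of the family (75.0%, 40.9 to 92.9), in 1 of the 15 other peaks of the locus and in 5.60% of all WT-IFN-γ summits. In the other lists it was found in 2 of 3 WT peaks (2.35% of all), 1 of 6 sgFLI1 peaks (2.24% of all) and 3 of 7 sgFLI1-IFN-γ peaks (2.67% of all). Within 250 bp it was found in 4 of 6 sgFLI1 peaks (6.39% of all) and again in 2 of 3 WT peaks (6.55% of all). The GAS site lay within 100 bp in 2 of 8 WT-IFN-γ peaks (6.89% of all) and the AP-1 site in 3 of 8 (23.5% of all). The ETS site, which ETS factors such as FLI1 bind, was in 0 of 8 (interval 0 to 32.4%, 1.28% of all) and in none of the 9 regions. At so low a share over all summits, its absence from 8 peaks cannot tell whether FLI1 binds there. The search covers these letters and both strands, IRF sites may overlap one another, and a match does not show that a factor was bound. Some APOL stretches are near copies of each other, so the APOL peaks are not independent, although the intervals treat them as if they were.

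**Figure D4:**
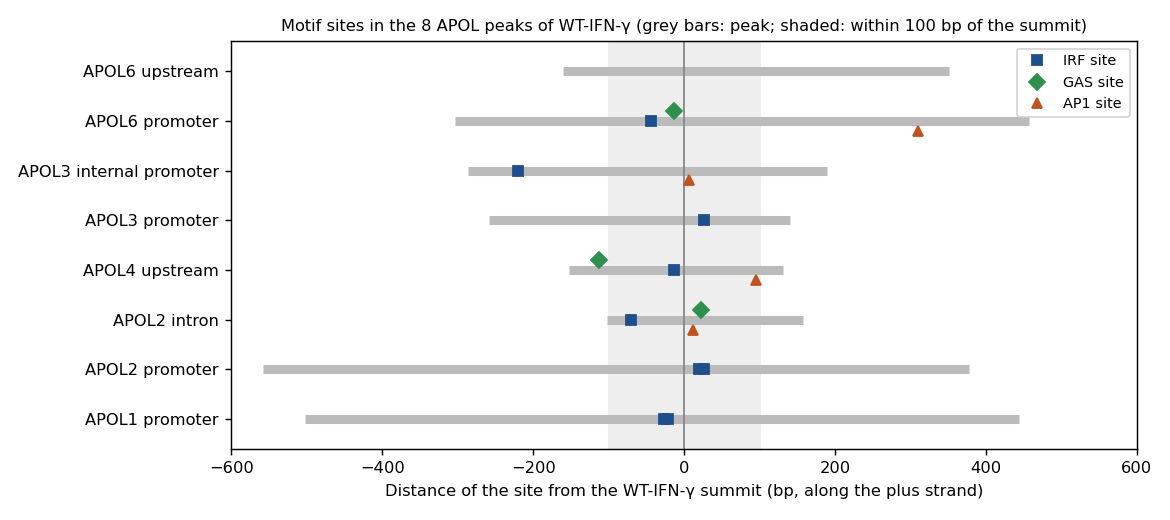
Position of IRF (GAAANNGAAA), GAS (TTCNNNGAA) and AP-1 (TGANTCA) sites relative to the WT-IFN-γ summit in bp (x axis) in the 8 APOL peaks of that library (rows), with grey bars for the extent of each peak. IRF sites fall within the shaded 100 bp in 6 of 8 peaks, lie at -220 bp in the APOL3 internal promoter and are missing from the APOL6 upstream peak.

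The family was set beside 98 other genes that respond to IFN-γ, listed from general knowledge. Of these, 52 (53.1%, 43.3 to 62.6) had a WT-IFN-γ peak without a WT peak in the gene body or the 10 kb upstream, against 32.0% of 19962 protein-coding genes. In FLI1-KO cells 24 of 98 (24.5%, 17.0 to 33.9) had such a gained peak, against 22.9% of all genes. Of the 6 APOL genes, 4 (APOL2, APOL3, APOL4 and APOL6) had one in WT and 1 (APOL3) in FLI1-KO.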

How the data were processed

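ATAC-seq peak lists of HK1 cells were analysed, with 1 list per group. The study's methods state that reads were trimmed (Trimmomatic) and mapped by Bowtie2 2.3.4.1 to GRCh38, and that the authors kept alignments with a mapping quality of at least 30, removed duplicates and called peaks with MACS2 2.1.2 at a q-value cutoff of 0.05. A reproducibility filter is named, but whether a list comes from 1 replicate or pooled ones is not given in the sources used here. The deposited columns were a score, a fold enrichment (ratio) over local background, and −log10 values of p and of q for the summit.

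From the deposited fold and −log10 p, a whole-number pileup was recovered for 100% of peaks (relative tolerance 0.0001). Tag density was the lowest background divided by the shortest peak. Peaks were shared at an overlap of at least 1 bp, and a region took its tallest peak per library. Intervals were exact Poisson, Wilson or conditional Clopper-Pearson at 95%, and log-normal for a ratio of ratios. They cover counting error only. A missing peak was given the pileup needed to reach the lowest −log10 p of its own list, 3.11 to 3.16 over the lists. Thinning used 3.16 for every list. With 1 library per group no test between groups was run.

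Genes came from GENCODE 44 and sequences from the GRCh38 genome. The members, the lists and the motifs were chosen with earlier results of these data known. All APOL peaks were named, as were the protein-coding genes within the locus and the nearest 2 on each side. Alternatives were a stricter q, a 50% overlap, a window of 3 kb, thinning to the lowest tag density (21 draws), centred or background-subtracted ratios and motifs within 250 bp. Scripts were tested on simulated data (Python 3.11.15, pandas 2.3.3, scipy 1.17.1).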

Additional observations from a re-analysis of the deposited data

Results flagged for a closer look

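At a pair of APOL promoters the ratio of IFN-γ-treated to untreated pileup was above 1 in WT and below 1 in FLI1-KO, and the difference was not tested (1 library per group). At the APOL1 promoter the ratio was 3.84 in WT and 0.794 in FLI1-KO, and the first divided by the second was 4.84 (1.66 to 14.2, counting error only). The interval in FLI1-KO, 0.326 to 1.88, included 1. At the APOL2 promoter the ratios were 1.93 and 0.882, and the first divided by the second was 2.19 (1.22 to 3.92). Here too the interval in FLI1-KO, 0.565 to 1.37, included 1. All shared regions in FLI1-KO had a median ratio of 0.909, so no lower pileup with IFN-γ is shown there. These promoter regions share an exact run of 58 bases, so reads from one can resemble the other, and its part in the result was not tested.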

How the results depend on the processing

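No paired analysis was possible because each group has 1 library. For the same reason no replicate could be left out. Of 102 alternative values, 7 moved and 1 reversed. The other 94 differed by no more than 1.5 times (counts) or lay inside the counting interval (shares and ratios), which is wide for so few peaks. With −log10 q of at least 5, sgFLI1-IFN-γ kept 4 of its 7 APOL peaks, the peak found with IFN-γ only in FLI1-KO went from 1 to 0, the peaks found only in WT-IFN-γ between treated genotypes went from 2 to 1, and the genes of the IFN-γ list with a gained peak in FLI1-KO went from 24 to 10 (24.5% to 10.2%), as the share of all protein-coding genes went from 22.9% to 9.26%. The 3 kb window also left 1 of those 2 WT-IFN-γ peaks, since the APOL4 peak lies further upstream. With an overlap of at least 50% of the shorter peak, 2 sgFLI1-IFN-γ peaks in place of 1 had no sgFLI1 peak. Within 250 bp of the summit, 66.7% of sgFLI1 peaks held an IRF site, against 16.7% within 100 bp. Centred on the median of all shared regions, the IFN-γ ratio in FLI1-KO at the APOL6 upstream region reversed from 0.943 to 1.04. The remaining 33 of 34 alternative pileup ratios kept their direction. Depth limits the smaller peaks: APOL peaks of 9 to 34 tags have intervals spanning more than 2-fold. The listing limits of 7 to 18 tags rest on the background of the strongest library, and the local background in a library without a peak is unknown. At the APOL4 upstream and APOL3 intron regions the limits of 7 or 8 tags equal the smallest pileup of any peak in those lists. A peak there could have been missed where the background was higher, which was not tested.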
